A study of Homo sapiens with 6 samples.

Results

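Fatty acid synthesis, desaturation, elongation, activation and storage were followed through 35 genes, taken by gene symbol from the 58735 genes of the deposited expression table. Each of the 35 symbols matched 1 gene. The rule named symbols only, but the list was chosen with earlier results of these data known. The table came from RNA sequencing of 6 human libraries labelled MB231, taken here as the breast cancer cell line MDA-MB-231. Of these, 3 libraries were labelled shPAK5, with a knockdown of the p21-activated kinase PAK5, and 3 were labelled shNC, with the wild-type genotype. The prefix sh is usual for a short hairpin RNA, and shNC for its non-targeting control. The labels name no drug, time point, hairpin sequence or clone, and nothing in them says that the replicates came from separate cultures. The p-values therefore measure the spread between these libraries, which may be technical.

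New fatty acids are built in the cytosol from acetyl-CoA, which ATP citrate lyase cuts from citrate and acetyl-CoA synthetases make from acetate. Acetyl-CoA carboxylase turns it into malonyl-CoA, and fatty acid synthase joins these units into palmitate. In the endoplasmic reticulum, desaturases add double bonds, and a cycle of condensation, reduction, dehydration and renewed reduction lengthens the chain. Acyl-CoA synthetases activate free fatty acids, and acyltransferases place the acyl chains into phospholipids and triglycerides. Many of these genes are known targets of the SREBP transcription factors, and the pathway is often active in breast tumours.

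Expression was given by the authors in FPKM, which corrects fragment numbers for exon length and sequencing depth. The exon length was that of all annotated exons of a gene joined, not of the transcript expressed. Levels, shares and sums across genes therefore compare only roughly. They are levels of transcripts, and the amount and activity of the enzymes were not measured. The reads recovered from the FPKM values came to between 15085168 and 18146091 per library. PAK5 itself had 0 reads in all 6 libraries, so the knockdown could not be checked from its mRNA. Library shNC replicate 1 stood apart from its group: chi-square per degree of freedom was 10.5 against shNC replicate 2 and 5.90 against shNC replicate 3. It was 3.57 between shNC replicates 2 and 3, and 2.41 to 2.98 for the pairs of shPAK5 libraries. Of the marker genes of the labelled line, vimentin (VIM) was at 164 ± 3.09 FPKM in shPAK5 and 149 ± 10.2 in shNC (SD, n = 3 each), but CDH2, TWIST1 and COL6A2 had 0 reads in every library. Epithelial markers summed to 3409 to 3459 FPKM in shPAK5 and 3388 to 3552 in shNC, nearly all from the keratins KRT8, KRT18 and KRT19 and from EPCAM. CDH1, the epithelial cadherin, was at 5.84 ± 0.0905 FPKM in shPAK5 and 4.64 ± 0.18 in shNC. Of the 10 epithelial markers, 8 averaged 1 FPKM or more, with ESRP2, CLDN4 and CLDN7 among them. The epithelial regulators ESRP1 and GRHL2 were near 0 in both groups. The markers of the labelled line and those of epithelium were thus each partly present and partly absent. Limma-voom called CDH1 and EPCAM higher and COL6A1 lower in shPAK5 among the markers. Others went the other way without overlap between groups: KRT18 and ESRP2 were lower, and VIM, CD44 and AXL higher, though not called. By sign, 5 tested markers of the labelled line were higher and 4 lower in shPAK5, and 5 tested epithelial markers were higher and 3 lower. The part of these genes in the results below was not tested. The 8 adipocyte markers summed to 134 to 144 FPKM in shPAK5 and 122 to 138 in shNC, nearly all from CFD and CIDEC, while ADIPOQ, LEP and LPL had 0 reads in all 6 libraries. In bulk RNA, fewer cells of a type and less RNA per cell cannot be told apart.

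The promoters of 3 members are shown because these genes stand at steps that the results turn on: SCD has the highest level of the 35, ACLY feeds the pathway, and ELOVL7 differed most in ratio. The letters are from RefSeq on GRCh38.p14, read 5′ to 3′ on the gene's strand, and cover the 250 bases before the RefSeq start closest to the annotated gene end, up to the first base that GENCODE 29 places in an exon. Capitals mark CCAAT boxes, bound by the factor NF-Y, and GC boxes (GGGCGG), bound by SP1 family factors, each on either strand. The SCD stretch is chr10:100346983-100347123 on the plus strand, the ACLY stretch chr17:41919023-41919272 on the minus strand, and the ELOVL7 stretch chr5:60844390-60844519 on the minus strand. The ACLY stretch lies inside the annotated ACLY gene, which runs from 41866908 to 41930542, and not upstream of it.
SCD: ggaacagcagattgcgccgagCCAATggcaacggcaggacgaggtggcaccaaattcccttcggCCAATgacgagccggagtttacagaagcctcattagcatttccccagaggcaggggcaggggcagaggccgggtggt
ACLY: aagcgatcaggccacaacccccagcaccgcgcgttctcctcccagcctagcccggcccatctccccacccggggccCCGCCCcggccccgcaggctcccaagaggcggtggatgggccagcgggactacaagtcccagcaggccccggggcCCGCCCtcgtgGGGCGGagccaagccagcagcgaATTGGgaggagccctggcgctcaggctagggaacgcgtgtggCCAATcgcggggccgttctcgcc
ELOVL7: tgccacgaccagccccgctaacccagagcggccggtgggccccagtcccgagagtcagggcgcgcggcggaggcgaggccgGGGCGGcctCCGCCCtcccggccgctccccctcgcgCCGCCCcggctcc
The SCD stretch held 2 CCAAT boxes, the ACLY stretch held 2 CCAAT boxes and 3 GC boxes, and the ELOVL7 stretch held 3 GC boxes. Over the full windows of 250 bases, GGGCGG was present for 24 of the 31 members with a RefSeq promoter (77.4%), against 42.6% of all 35116 promoters. CCAAT was present for 13 of the 31 members (41.9%), against 32.0% of all promoters. The SREBP motif TCACNCCAC was in 0 of the 31 member windows, against 0.883% of all promoters. The E-box CACGTG was in 2 of the 31, ELOVL4 and ELOVL5, against 6.34% of all promoters. Each member counted with the window closest to its annotated end, while all promoters include further starts of the same gene and genes not expressed here. The member and background shares are therefore not from like sets. FASN, HSD17B12, DGAT1 and DGAT2 had no promoter in the source used. These matches describe letters in a window and were not tied to the expression differences.

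Of the 35 genes, 29 were tested, those that averaged 1 FPKM or more in the 6 libraries, and 6 were not. No member differed between shPAK5 and shNC at an adjusted p of 0.05 in limma on log2(FPKM + 1): 0 of 29, against 0.116% of all 11237 genes tested. In limma-voom on the recovered reads, 2 of 29 did, against 1.04% of all genes, and both rose in shPAK5, against 0.845% of all genes: ELOVL7, an elongase, and ACSS1, the mitochondrial acetyl-CoA synthetase. At an unadjusted limma p under 0.05 there were 11 of 29 members (37.9%), against 17% of all genes. Of these, 8 were higher in shPAK5, against 9.52% of all genes, and 3 were lower, against 7.46%.

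The 3 shPAK5 and the 3 shNC values did not overlap in 15 of the 29 tested members (51.7%), against 23.1% of all tested genes. The shPAK5 values lay above in 11 of these, against 12.6% of all genes, and below in 4, against 10.5%. The log2 difference was positive in 20 and negative in 9 of the 29, with a median of 0.07, beside 51.3% positive and a median of 0.00 over all tested genes. Without shNC replicate 1, limma called 6 of 29 members (20.7%), against 8.14% of all 11247 genes then tested. These were SCD, ELOVL7, HSD17B12 and HACD2, higher in shPAK5, against 5.39% of all genes, and ACLY and ELOVL1, lower in shPAK5, against 2.75%. Limma-voom without that library called 13 of 29 (44.8%), against 21.5% of all genes. It added ACSS1, ELOVL5, ACSL3, ACSL4 and ACSL5 to the 4 higher genes, 9 in all against 13.1% of all genes, and ACACA and FASN to the 2 lower genes, 4 in all against 8.34%. With libraries weighted by their spread, limma called 12 of 29 (41.4%), against 28.4% of all genes. Leaving out shNC replicate 1 also widened the difference between genes of low and high GC content, given below with the GC classes.

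**Figure D1:**
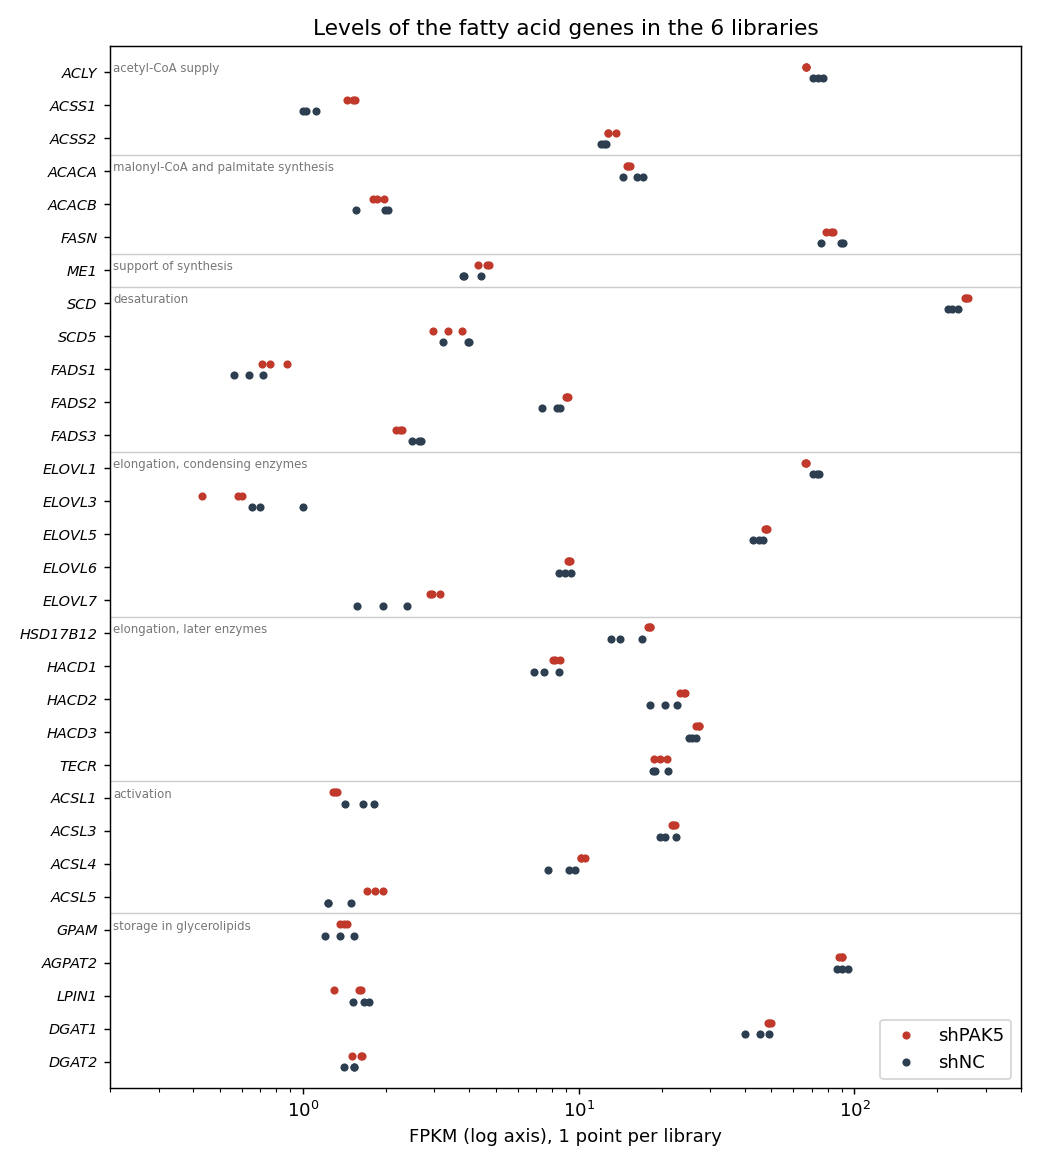
FPKM on a log axis for the members with a mean above 0.1 FPKM, 1 point per library, shPAK5 above shNC, grouped by step. The shPAK5 and shNC points of most genes lie close together, and levels run from under 1 FPKM for FADS1 and ELOVL3 to 252 to 258 FPKM in shPAK5 and 219 to 237 FPKM in shNC for SCD.

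Among the genes of acetyl-CoA supply, ACLY, ATP citrate lyase (ENSG00000131473, chromosome 17, 41866908 to 41930542, minus strand, GRCh38), had the highest transcript level. ACLY was at 67.0, 66.8 and 66.6 FPKM in shPAK5 libraries 1 to 3, against 70.8, 73.6 and 76.7 FPKM in shNC libraries 1 to 3. All shPAK5 libraries lay below all shNC libraries, and the shPAK5 libraries were nearly alike. Limma gave a log2 difference of -0.14 ± 0.04 (SE), with an unadjusted p of 0.00974 and an adjusted p of 0.214. Leaving out shNC replicate 1 gave -0.17, with an adjusted p of 0.0374. With a correction for GC content, explained with the GC classes, the limma difference was -0.11 (adjusted p = 0.146). With the correction and without shNC replicate 1 it was -0.13 (adjusted p = 0.119).

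ACSS1, which makes acetyl-CoA from acetate in mitochondria (ENSG00000154930, chromosome 20, 25006230 to 25058980, minus strand), was low. It was at 1.52, 1.44 and 1.54 FPKM in shPAK5, against 1.00, 1.12 and 1.02 FPKM in shNC. The groups did not overlap, and the ratio of means was 1.43. The values rested on 202 to 240 reads in shPAK5 libraries and 148 to 163 reads in shNC libraries. In limma-voom ACSS1 rose by 0.52 ± 0.11 on the log2 scale (adjusted p = 0.0362), and in limma the difference was 0.29 ± 0.08, with an adjusted p of 0.188. Its transcript had a GC content of 52.0%, and the limma-voom difference was 0.55 after the correction for GC content that is explained with the GC classes (adjusted p = 0.00669).

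ACSS2, the cytosolic and nuclear acetyl-CoA synthetase, averaged 13.1 ± 0.508 FPKM in shPAK5 and 12.3 ± 0.228 in shNC (SD, n = 3 each). Its groups did not overlap, but the log2 difference of 0.08 ± 0.05 did not pass the test (adjusted p = 0.43) and was 0.12 with the GC correction. Within the pair of synthetases, ACSS1 made up 10.3 ± 0.367% of the summed FPKM in shPAK5 and 7.84 ± 0.301% in shNC. The acetyl-CoA step as a whole summed to 81.4 ± 0.681 FPKM in shPAK5 and 87.0 ± 3.09 in shNC, set mainly by ACLY.

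Malonyl-CoA and palmitate synthesis showed overlapping groups for each of its enzymes. FASN, fatty acid synthase, was the most abundant, at 83.3, 82.3 and 79.1 FPKM in shPAK5, against 75.4, 91.1 and 89.2 FPKM in shNC. The shPAK5 values fell between shNC replicate 1, which was lowest, and the other shNC libraries. Limma gave a difference of -0.06 ± 0.07, with a 95% interval of -0.22 to 0.11 and an adjusted p of 0.705. Without shNC replicate 1 it was -0.14, with an adjusted p of 0.0549 in limma and of 0.00405 in limma-voom. The FASN transcript had a GC content of 65.3%, and over all 6 libraries the GC correction brought the difference to -0.01. With the correction and without shNC replicate 1, the limma difference was -0.05 (adjusted p = 0.514).

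ACACA, the cytosolic acetyl-CoA carboxylase, averaged 15.1 ± 0.159 FPKM in shPAK5 and 15.9 ± 1.35 in shNC. Its log2 difference was -0.07 (adjusted p = 0.613), and -0.13 without shNC replicate 1. ACACB, the isoform at the mitochondrial surface that restrains fatty acid oxidation, averaged 1.87 ± 0.0829 FPKM in shPAK5 and 1.86 ± 0.262 in shNC (adjusted p = 0.957). ACACA made up 89.0% of the summed carboxylase FPKM in shPAK5 and 89.6% in shNC. The carboxylases and FASN together summed to 98.6 ± 2.02 FPKM in shPAK5 and 103 ± 10.2 in shNC.

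Of the supporting genes, ME1, the cytosolic malic enzyme that makes NADPH, was at 4.64, 4.72 and 4.30 FPKM in shPAK5, against 4.41, 3.85 and 3.79 FPKM in shNC. The groups overlapped through shNC replicate 1, and the log2 difference of 0.15 ± 0.07 did not pass the test (adjusted p = 0.323) and was 0.06 with the GC correction. THRSP, a lipogenic regulator of liver and fat, was without a read in any library. With 3 reads as the limit that a count of 0 allows, its level was up to 0.0509 FPKM over the pooled shPAK5 libraries and 0.0501 FPKM over the pooled shNC libraries, where these limits cover counting error only.

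Among the desaturase genes, SCD, stearoyl-CoA desaturase, which makes oleate and palmitoleate (ENSG00000099194, chromosome 10, 100347124 to 100364834, plus strand), had the highest transcript level. SCD was at 258, 254 and 252 FPKM in shPAK5, against 237, 219 and 226 FPKM in shNC, and ranked 117th by mean FPKM among all genes. Every shPAK5 library lay above every shNC library, with shNC replicate 1 the nearest. With 19710 to 25104 reads behind each value, counting error was small. The log2 difference was 0.16 ± 0.04, with an adjusted p of 0.17 in limma and 0.0592 in limma-voom.

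SCD kept a log2 difference of 0.16 after the GC correction, and the adjusted p in limma-voom was then 0.0207. When shNC replicate 1 was left out, the difference was 0.19, with an adjusted p of 0.0325 in limma. SCD5, its homologue that is known best from brain and pancreas, averaged 3.36 ± 0.41 FPKM in shPAK5 and 3.73 ± 0.441 in shNC, with overlapping groups. Its log2 difference was -0.12 (adjusted p = 0.56), and -0.07 without shNC replicate 1. SCD made up 98.7 ± 0.167% of the summed stearoyl-CoA desaturase FPKM in shPAK5 and 98.4 ± 0.145% in shNC.

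The front-end desaturases, which act on polyunsaturated fatty acids, were much lower than SCD. FADS2, the delta-6 desaturase, was at 8.99, 9.18 and 9.10 FPKM in shPAK5, against 7.38, 8.54 and 8.32 FPKM in shNC. FADS2 had no overlap between groups, and shNC replicate 1 was the lowest library. Its log2 difference was 0.15 ± 0.06 (adjusted p = 0.264 in limma), and 0.23 with an adjusted p of 0.0165 in limma-voom with the GC correction. When shNC replicate 1 was left out, it was 0.10, with an adjusted p of 0.173 in limma.

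FADS3, a desaturase of sphingoid bases, was at 2.28, 2.25 and 2.18 FPKM in shPAK5, against 2.48, 2.67 and 2.64 FPKM in shNC. Its groups did not overlap either, but in the other direction, with a log2 difference of -0.15 ± 0.06 (adjusted p = 0.282). With the GC correction the FADS3 difference was -0.11 in limma, with an unadjusted p of 0.0988 and an adjusted p of 0.376. FADS1, the delta-5 desaturase, averaged 0.780 ± 0.0834 FPKM in shPAK5 and 0.638 ± 0.0766 in shNC and fell below the filter for testing. FADS2 made up 75.1 ± 0.904% of the front-end desaturase FPKM in shPAK5 and 71.4 ± 0.957% in shNC, and FADS3 18.5 ± 0.324% in shPAK5 and 23.0 ± 0.596% in shNC. For each of the 2 genes the shares did not overlap between groups. Exons of FADS1 and FADS2 overlap over 490 bp on opposite strands, and the sources used here do not say if strand was used in counting. The 5 desaturase genes summed to 270 ± 3.09 FPKM in shPAK5 and 242 ± 8.61 in shNC, which followed SCD.

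**Figure D2:**
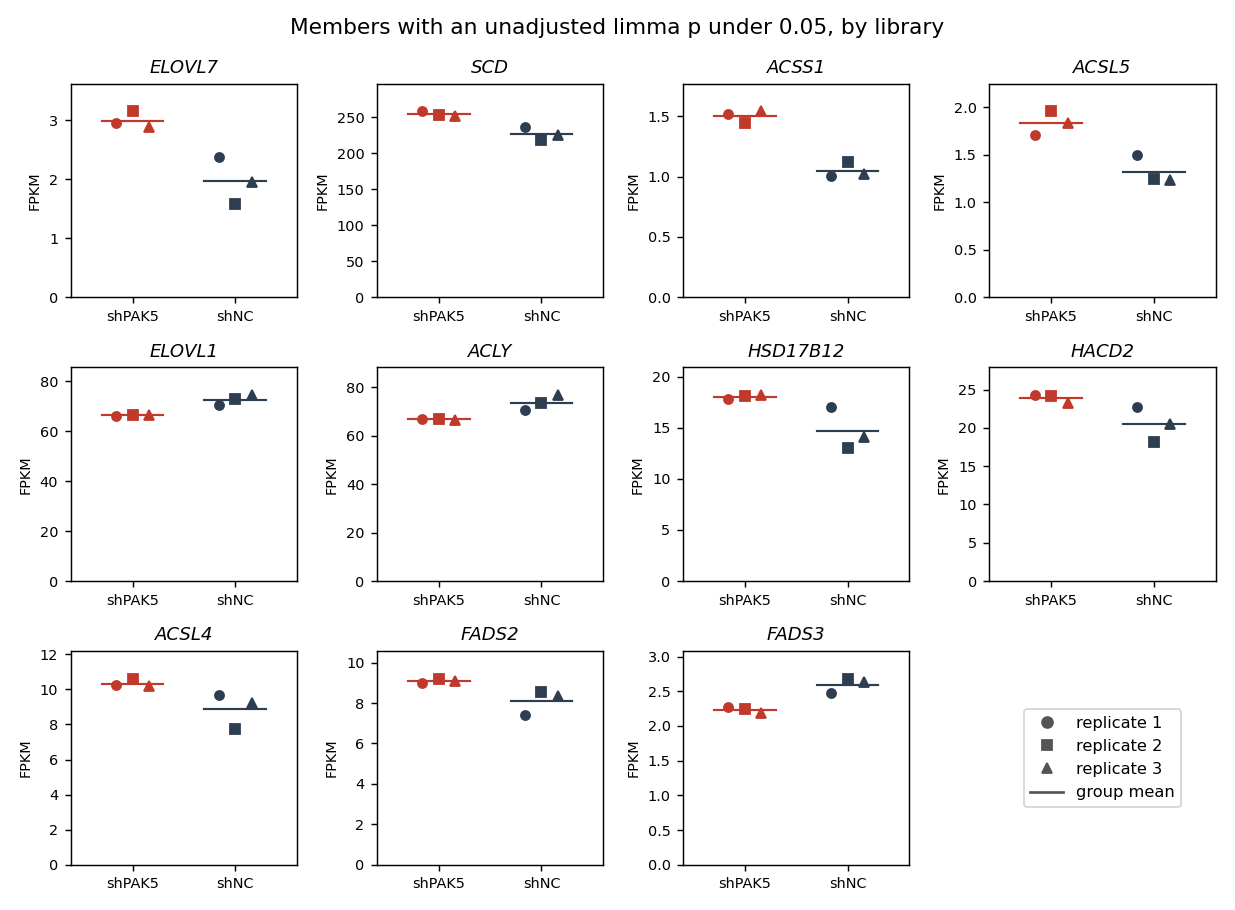
FPKM in each library for the 11 members with an unadjusted limma p under 0.05, shPAK5 left of shNC, with replicates by symbol and group means as lines, all axes starting at 0. ELOVL7 shows the largest ratio, 1.52, and shNC replicate 1 (circle) lies nearest to the shPAK5 values in genes such as HSD17B12 and HACD2, but not in FADS2 or ACSS1.

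The condensing enzymes of elongation differed in direction from gene to gene, while their sum hardly moved, at 127 ± 0.373 FPKM in shPAK5 and 129 ± 2.43 in shNC. ELOVL7, which lengthens saturated and other long-chain acyl-CoAs (ENSG00000164181, chromosome 5, 60751791 to 60844389, minus strand), was at 2.95, 3.15 and 2.88 FPKM in shPAK5, against 2.38, 1.58 and 1.95 FPKM in shNC. All shPAK5 libraries lay above all shNC libraries, and the ratio of means was 1.52. The values rested on 199 to 245 reads in shPAK5 libraries and 121 to 191 reads in shNC libraries. In limma-voom ELOVL7 rose by 0.62 ± 0.14 on the log2 scale (adjusted p = 0.0377). In limma the difference was 0.44 ± 0.10, with a 95% interval of 0.20 to 0.67 and an adjusted p of 0.168.

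ELOVL7 had the lowest transcript GC content among the 29 tested members, 36.4%, and genes of low GC content were on the whole higher in shPAK5. With the GC correction the log2 difference of ELOVL7 was 0.31 in limma (adjusted p = 0.0986) and 0.46 in limma-voom (adjusted p = 0.0264). Without shNC replicate 1 it was 0.53 in limma (adjusted p = 0.033). ELOVL7 made up 2.36 ± 0.104% of the summed elongase FPKM in shPAK5 and 1.52 ± 0.295% in shNC.

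ELOVL1, which makes saturated and monounsaturated very long chains (ENSG00000066322, chromosome 1, 43363397 to 43368074, minus strand), was the most abundant elongase. It was at 66.1, 66.6 and 66.6 FPKM in shPAK5, against 70.6, 73.1 and 74.5 FPKM in shNC. The groups did not overlap, and all shPAK5 libraries were lower. The log2 difference was -0.13 ± 0.04 (adjusted p = 0.212), -0.08 with the GC correction, and -0.15 without shNC replicate 1 (adjusted p = 0.0397).

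ELOVL5, the elongase of polyunsaturated fatty acids, averaged 47.9 ± 0.537 FPKM in shPAK5 and 44.8 ± 1.94 in shNC. Its groups did not overlap, but the log2 difference of 0.09 ± 0.04 did not pass the test (adjusted p = 0.324) and was 0.03 with the GC correction. ELOVL6, which extends palmitate to stearate, averaged 9.21 ± 0.0831 FPKM in shPAK5 and 8.92 ± 0.438 in shNC, with overlapping groups (adjusted p = 0.698). ELOVL1 made up 52.3 ± 0.307% of the elongase FPKM in shPAK5 and 56.3 ± 1.75% in shNC, and ELOVL5 made up 37.7 ± 0.346% in shPAK5 and 34.7 ± 1.05% in shNC.

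The other elongases were not tested. ELOVL3, known from skin and brown fat, was detected but averaged under 1 FPKM, with 10 to 15 reads in shPAK5 libraries and 15 to 24 reads in shNC libraries, or 0.538 ± 0.0933 FPKM in shPAK5 and 0.783 ± 0.187 in shNC. Its groups did not overlap, and the ratio of means was 0.687. ELOVL2, of liver and retina, and ELOVL4, of retina and skin, had 0 reads in all 6 libraries. This allows up to 0.0150 FPKM in pooled shPAK5 libraries and 0.0147 in pooled shNC libraries for ELOVL2, and up to 0.0197 FPKM in pooled shPAK5 libraries and 0.0193 in pooled shNC libraries for ELOVL4.

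The later enzymes of the elongation cycle ranged from 7.63 to 27.1 FPKM in group means, and 2 of the 5 had an unadjusted p under 0.05. HSD17B12, the 3-ketoacyl-CoA reductase, was at 17.8, 18.1 and 18.2 FPKM in shPAK5, against 17.0, 13.1 and 14.1 FPKM in shNC. The groups did not overlap, but shNC replicate 1 lay close to the shPAK5 libraries. The log2 difference was 0.28 ± 0.09 (adjusted p = 0.215), 0.17 with the GC correction, and 0.38 without shNC replicate 1 (adjusted p = 0.0292). Other genes share 21.6% of the exonic bases of HSD17B12, mainly on the opposite strand, so some of its reads may come from those genes.

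HACD2, a 3-hydroxyacyl-CoA dehydratase, was at 24.2, 24.2 and 23.2 FPKM in shPAK5, against 22.7, 18.2 and 20.5 FPKM in shNC. Again the groups did not overlap and shNC replicate 1 was the nearest control. HACD2 had a log2 difference of 0.22 ± 0.07 (adjusted p = 0.228), 0.14 with the GC correction, and 0.29 without shNC replicate 1 (adjusted p = 0.0368). HACD3, the most abundant dehydratase, was at 26.7, 27.3 and 27.3 FPKM in shPAK5, against 26.7, 25.1 and 25.7 FPKM in shNC. The lowest shPAK5 value and the highest shNC value were nearly equal, and the log2 difference was 0.07 ± 0.04 (adjusted p = 0.438), or 0.01 with the GC correction.

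HACD1, the dehydratase known from muscle, averaged 8.27 ± 0.251 FPKM in shPAK5 and 7.63 ± 0.827 in shNC, with overlapping groups. Its log2 difference was 0.11 (adjusted p = 0.483), 0.03 with the GC correction and 0.18 without shNC replicate 1. TECR, the reductase that closes the cycle, averaged 19.8 ± 1.03 FPKM in shPAK5 and 19.5 ± 1.32 in shNC (adjusted p = 0.91). The later enzymes summed to 97.1 ± 0.496 FPKM in shPAK5 and 88.2 ± 6.01 in shNC, without overlap. HACD2 made up 40.3 ± 0.643% of the dehydratase FPKM in shPAK5 and 37.9 ± 1.52% in shNC.

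**Figure D3:**
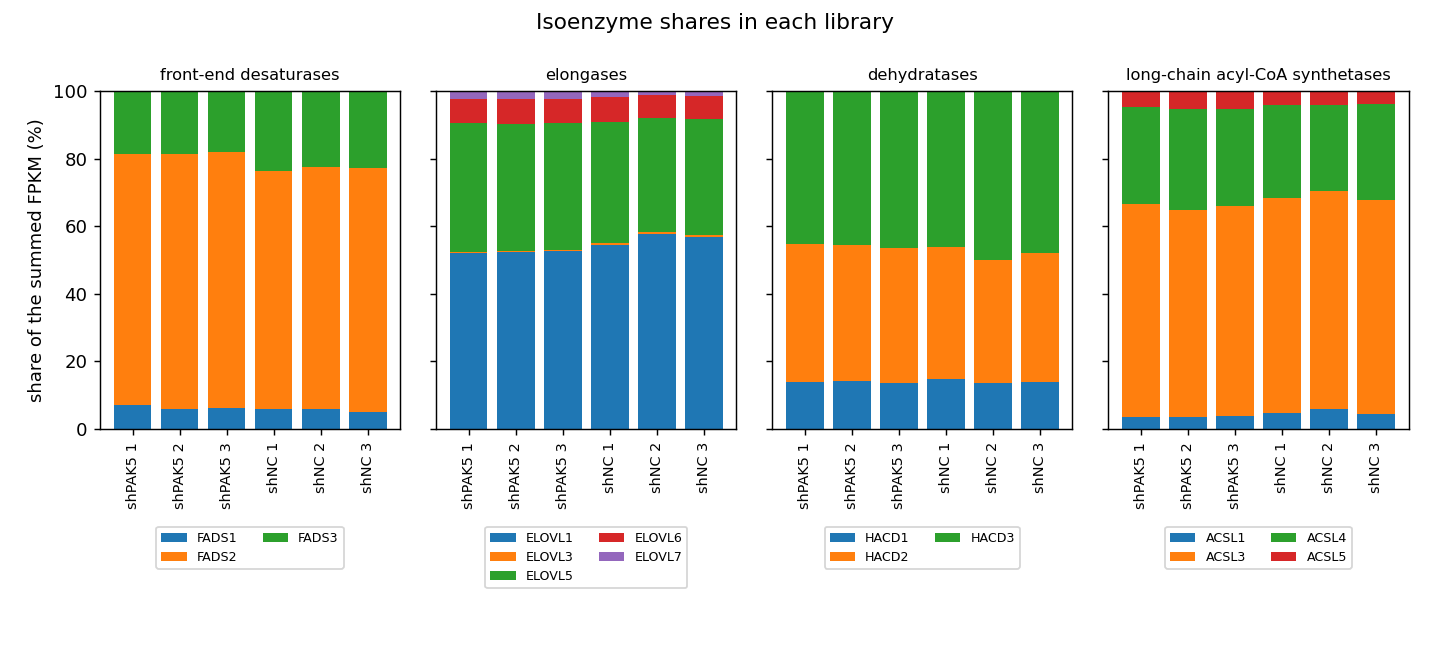
Share of each gene in the summed FPKM of its family, in percent, 1 bar per library with shPAK5 left of shNC, for the front-end desaturases, the elongases, the dehydratases and the long-chain acyl-CoA synthetases. FADS2 leads its family in all 6 libraries, ELOVL1 has a smaller share in each shPAK5 library (52.0 to 52.6%) than in any shNC library (54.3 to 57.7%), and ELOVL2 and ELOVL4, at 0 reads, are left out.

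The transcript of CD36, a fatty acid translocase of uptake, was near 0, with 3 to 5 reads in shPAK5 libraries and 1 to 6 reads in shNC libraries. Its FPKM values were 0.0203, 0.0272 and 0.0183 in shPAK5, against 0.0105, 0.00548 and 0.0331 in shNC. The groups overlapped, and counts this low allow no comparison.

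Among the long-chain acyl-CoA synthetases, which activate free fatty acids, ACSL3 was the most abundant. ACSL3, known from lipid droplet growth, was at 22.3, 21.8 and 21.9 FPKM in shPAK5, against 22.6, 19.7 and 20.5 FPKM in shNC. The groups overlapped, and the log2 difference of 0.07 ± 0.06 was -0.04 with the GC correction (adjusted p = 0.525 before it and 0.598 with it). ACSL4, which prefers arachidonate and is known for its role in ferroptosis, was at 10.2, 10.6 and 10.2 FPKM in shPAK5, against 9.66, 7.76 and 9.23 FPKM in shNC. The ACSL4 groups did not overlap, and the log2 difference was 0.20 ± 0.08 (adjusted p = 0.253), or 0.09 with the GC correction.

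ACSL5, known from intestine and mitochondria, was at 1.70, 1.95 and 1.83 FPKM in shPAK5, against 1.49, 1.24 and 1.23 FPKM in shNC. All shPAK5 libraries were higher, with a ratio of means of 1.38. The log2 difference was 0.29 ± 0.08 (adjusted p = 0.209), 0.26 with the GC correction, and 0.34 without shNC replicate 1 (adjusted p = 0.0546). ACSL1, the main form of fat and liver, averaged 1.31 ± 0.0198 FPKM in shPAK5 and 1.63 ± 0.195 in shNC. Its groups did not overlap and lay the other way, with a log2 difference of -0.18 ± 0.08 (adjusted p = 0.309).

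Within this family the share of ACSL5 was 5.15 ± 0.339% in shPAK5 and 4.03 ± 0.21% in shNC, and that of ACSL1 was 3.69 ± 0.0738% in shPAK5 and 5.001 ± 0.824% in shNC. ACSL3 made up 62.1 ± 0.798% in shPAK5 and 63.9 ± 0.621% in shNC. The 4 synthetases summed to 35.5 ± 0.226 FPKM in shPAK5 and 32.7 ± 2.46 in shNC, with overlap.

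Storage in glycerolipids showed no group difference past the test in limma or limma-voom over all 6 libraries. AGPAT2, which makes phosphatidic acid and is mutated in a congenital lipodystrophy, was the most abundant, at 90.1, 87.6 and 89.9 FPKM in shPAK5, against 86.3, 89.9 and 94.97 FPKM in shNC. The groups overlapped (log2 difference -0.02 ± 0.04, adjusted p = 0.851). DGAT1, which makes triglycerides in the endoplasmic reticulum, averaged 49.2 ± 0.605 FPKM in shPAK5 and 44.8 ± 4.49 in shNC, with shNC replicate 1 the lowest at 40.1 FPKM. Its log2 difference was 0.13 ± 0.07 (adjusted p = 0.359), and 0.20 with an adjusted p of 0.0264 in limma-voom with the GC correction, where DGAT1 was higher in shPAK5. Other genes share 11.1% of its exonic bases, and without shNC replicate 1 the limma difference was 0.06 (adjusted p = 0.378).

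DGAT2, the isoform of lipid droplets, averaged 1.58 ± 0.0708 FPKM in shPAK5 and 1.49 ± 0.0662 in shNC. Its log2 difference was 0.05 (adjusted p = 0.733), 0.08 with the GC correction and 0.03 without shNC replicate 1. GPAM, the mitochondrial glycerol-3-phosphate acyltransferase, averaged 1.40 ± 0.0411 FPKM in shPAK5 and 1.37 ± 0.165 in shNC (adjusted p = 0.908). LPIN1, a phosphatidic acid phosphatase, averaged 1.51 ± 0.179 FPKM in shPAK5 and 1.64 ± 0.114 in shNC (adjusted p = 0.665). In all of these the groups overlapped. DGAT1 made up 96.9% of the diacylglycerol acyltransferase FPKM in shPAK5 and 96.8% in shNC.

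**Figure D4:**
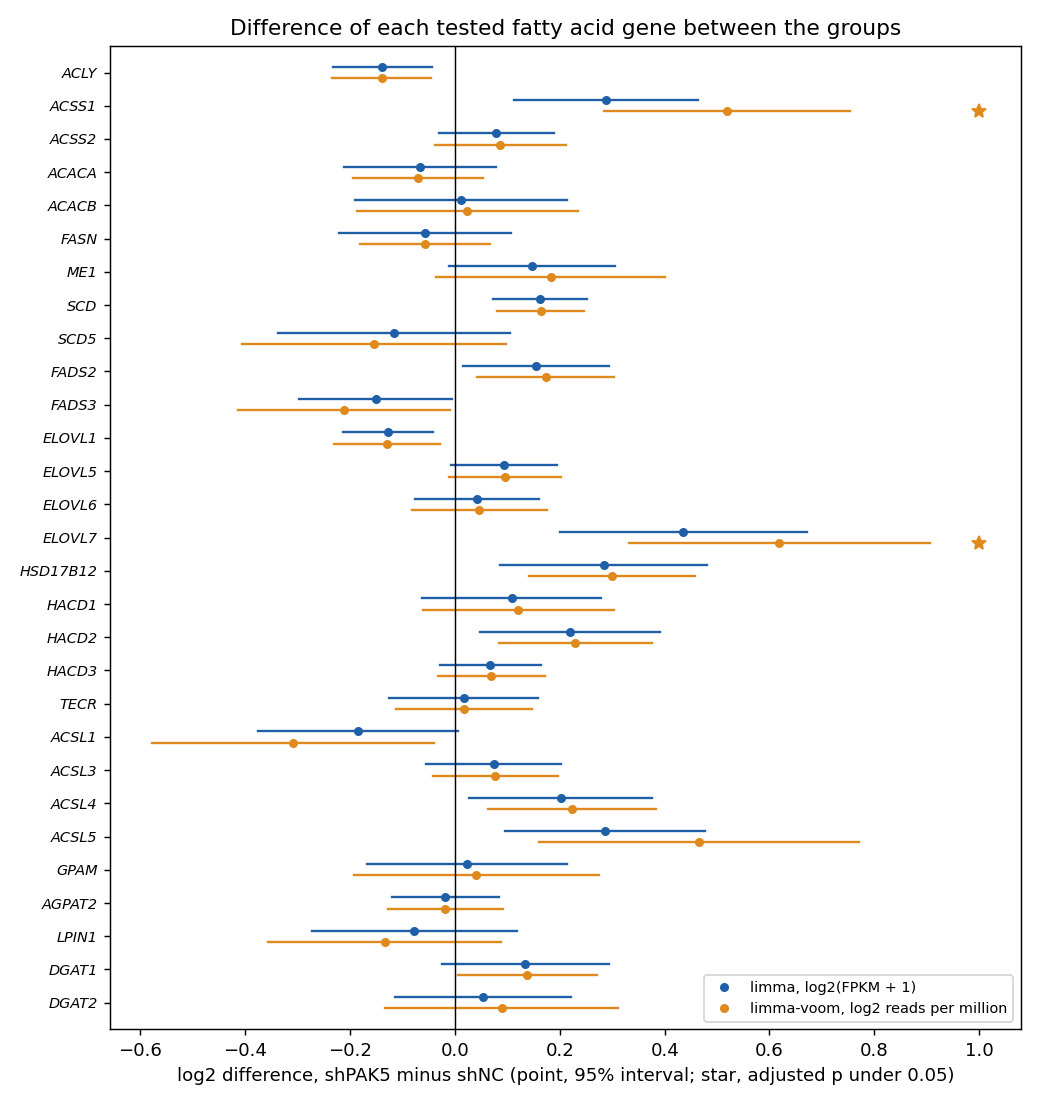
Log2 difference, shPAK5 minus shNC, of each of the 29 tested members in limma on log2(FPKM + 1) and in limma-voom on recovered reads scaled to depth, with 95% intervals as bars. Stars mark an adjusted p under 0.05, which ACSS1 and ELOVL7 reached in limma-voom and no member reached in limma.

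The same gene led its family in all 6 libraries in each of the 8 families of isoenzymes: SCD, FADS2, ELOVL1, HACD3, ACACA, ACSS2, ACSL3 and DGAT1. Summed by step, the groups did not overlap for acetyl-CoA supply, lower in shPAK5, or for desaturation and the later elongation enzymes, higher in shPAK5. They overlapped for the other 6 steps. These sums were not tested, and neither the sums nor the shares were corrected for GC content. Of the later elongation enzymes, HSD17B12, HACD1, HACD2 and HACD3 had a transcript GC content of 38.0 to 42.3%, and TECR of 48.5%. Among the elongases it was 55.4% for ELOVL1, 41.7% for ELOVL5 and 36.4% for ELOVL7.

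GC content moved with the difference between the groups. Of all tested genes, the 4144 with a transcript GC content under 45% had a median log2 difference of 0.08, the 3736 between 45 and 55% of -0.02, and the 3354 over 55% of -0.05. The members followed the same order, with medians of 0.13 for 12 members, 0.01 for 11 members and -0.04 for 6 members. All 12 members under 45% had a positive difference, against 6 of 11 between 45 and 55% and 2 of 6 over 55%. These bounds were chosen after the values were seen. In the same order of classes, the medians without shNC replicate 1 were 0.12, -0.02 and -0.09 over all tested genes. For the members they were then 0.19, -0.07 and -0.10. By library, the median deviation of the 1771 genes under 40% GC was 0.08, 0.06 and 0.04 in shPAK5 libraries 1 to 3. It was 0.06, -0.15 and -0.07 in shNC libraries 1 to 3, so shNC replicate 1 lay with the shPAK5 libraries. Leaving out shNC replicate 1 thus removed the control library closest to shPAK5 on this measure.

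A correction for GC content in each library brought the median of the 12 low-GC members to 0.04, and 18 of the 29 members were then positive and 11 negative, with a median of 0.03. With it, limma again called 0 of 29, against 0.463% of all genes, and 12 members (41.4%) had an unadjusted p under 0.05, against 17.6%. Limma-voom with the correction called 5 of 29 (17.2%), against 2.21% of all genes. These were ACSS1, SCD, FADS2, ELOVL7 and DGAT1, all higher in shPAK5, against 1.4% of all genes. With the correction and without shNC replicate 1, limma called 0 of 29, against 0.24% of all genes.

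**Figure D5:**
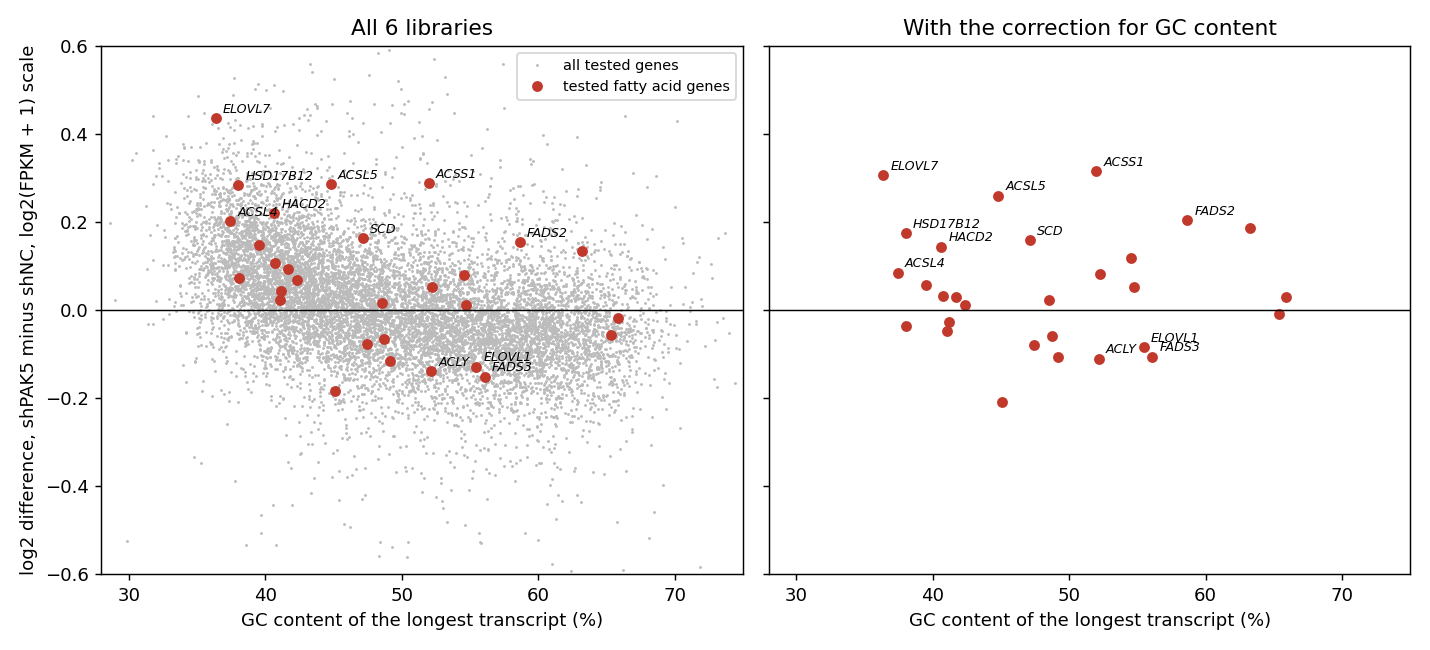
Log2 difference, shPAK5 minus shNC, on the log2(FPKM + 1) scale against the GC content of the longest transcript, before (left) and after (right) the GC correction, with members in red and all tested genes in grey in the left panel, where 65 genes beyond 0.6 in size are not shown. The members of low GC content, such as HSD17B12, HACD2 and ACSL4, move toward 0 with the correction, while ACSS1, SCD and FADS2 do not.

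Around the members, 10 lists of 150 genes of lipid metabolism were read from the same fit, 118 of them tested. No gene of these lists passed in limma or limma-voom, and 19 (16.1%) had an unadjusted limma p under 0.05, close to the 17% of all genes, 13 of them higher and 6 lower in shPAK5. Without shNC replicate 1, limma called 9 (7.63%), close to the 8.14% of all genes. These were INSIG1, IDH1, AASDHPPT, PRKAA1, CYB5B, LIPA and DECR1, higher in shPAK5, and USF1 and PLIN3, lower in shPAK5. The genes given next had the lowest p in their lists and did not pass over all 6 libraries.

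Among regulators of lipogenic transcription, INSIG1, which retains the SREBP complex in the endoplasmic reticulum, averaged 20.0 ± 0.466 FPKM in shPAK5 and 17.9 ± 0.554 in shNC (adjusted p = 0.207). USF1, a factor of lipogenic promoters, averaged 12.8 ± 0.203 FPKM in shPAK5 and 14.7 ± 1.13 in shNC (adjusted p = 0.22). Without shNC replicate 1 both passed, INSIG1 with a log2 difference of 0.18 (adjusted p = 0.044) and USF1 with -0.25 (adjusted p = 0.0325). SREBF1, which encodes the SREBP form of fatty acid synthesis, averaged 44.9 ± 1.95 FPKM in shPAK5 and 45.7 ± 3.62 in shNC (adjusted p = 0.893). SREBF1 lies outside the rule for named genes and was chosen after its values were seen.

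In the supply of carbon and NADPH, the lactate exporter SLC16A3 had a log2 difference of 0.21 and the mitochondrial malic enzyme ME3 of -0.19. Among AMPK subunits and its kinases, which restrain acetyl-CoA carboxylase, it was 0.20 for PRKAA1 and -0.11 for STK11. Among electron donors it was 0.17 for CYB5B and 0.13 for CYB5A, both cytochromes b5. The limma adjusted p of these 6 genes ranged from 0.214 to 0.447. With the GC correction the difference was 0.26 for SLC16A3 and -0.14 for ME3. It was 0.05 for PRKAA1, -0.06 for STK11, 0.10 for CYB5B and 0.04 for CYB5A. For STK11 it was -0.17 without shNC replicate 1.

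Among fatty acid transporters and other synthetases, the log2 difference was -0.08 for the acyl-CoA binding protein DBI. Among thioesterases it was 0.16 for ACOT13 and -0.08 for ACOT7. Among other glycerolipid enzymes it was -0.11 for AGPAT1 and 0.16 for CDS1. Among lipid droplet genes it was -0.21 for CIDEC, a droplet fusion protein, and -0.11 for the lipase PNPLA2. The limma adjusted p of these 7 genes ranged from 0.171 to 0.492. With the GC correction the difference was -0.18 for DBI, 0.10 for ACOT13, -0.03 for ACOT7 and -0.07 for AGPAT1. It was 0.10 for CDS1, -0.16 for CIDEC and -0.06 for PNPLA2. Without shNC replicate 1 it was -0.04 for DBI, -0.13 for ACOT7 and 0.25 for CDS1.

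Of genes that degrade fatty acids, EHHADH of peroxisomes had a log2 difference of 0.22 and DECR1, the dienoyl-CoA reductase, of 0.19. In mitochondrial fatty acid synthesis, a separate pathway that feeds lipoic acid, it was -0.19 for the condensing enzyme OXSM and 0.23 for CBR4, a subunit of the ketoreductase. The limma adjusted p of these 4 genes ranged from 0.203 to 0.25. With the GC correction the difference was 0.16 for EHHADH, 0.15 for DECR1, -0.22 for OXSM and 0.08 for CBR4.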

How the data were processed

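Per the file headers, the authors deposited FPKM per gene for 6 libraries, with gene coordinates and exonic lengths. The labels name the NEBNext Ultra RNA kit. A mouse build, mm10, is named in the submitters' processing notes, but all 58735 gene IDs, coordinates and exonic lengths equal the human annotation GENCODE 29 (GRCh38). Aligner, counter and use of strand were not given in the sources used here.

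Groups and replicate numbers came from the titles. Multiplying FPKM by gene length gave, for 100% of values, a whole number (within 0.001) of equal steps in each library, and the number of steps was taken as reads. The test was limma 3.58.1 in R 4.3.3 on log2(FPKM + 1), with a trended variance and Benjamini-Hochberg adjustment over 11237 genes at 0.05. This scale understates the change of low genes, so ratios of mean FPKM are given for some. With 3 libraries a group, exact permutation p-values start at 0.1, and none was used. Limma-voom used the recovered reads. For the GC correction, a loess fit (span 0.3) of each library's deviations was taken off, on the GC content of the longest GENCODE 29 transcript of each gene. Scripts were tested on simulated data. Figures were drawn with matplotlib 3.10.9 in Python 3.11.15.

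Members and gene lists were chosen with earlier results of these data known. Library values are given for members with an unadjusted p under 0.05 and for the most abundant of each step, and list genes by their lowest p. The result of 1 list gene is not reported here. In total 23 alternatives were run, among them other pseudocounts, filters, scalings, weights, a replicate block and each library left out. Limma-voom with the GC correction or without shNC replicate 1, and the GC correction without shNC replicate 1, were chosen after seeing the data. Depth limits ELOVL3, CD36 and the members without reads.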

Additional observations from a re-analysis of the deposited data

How the results depend on the processing

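Over the 23 alternatives, 23 of the 29 tested members kept the sign of their difference in each alternative that tested them, and 6 of small difference (ACACB, ACSL3, AGPAT2, ELOVL6, GPAM and TECR) did not. The number of members past an adjusted p of 0.05 was 0 over all 6 libraries, 2 in limma-voom, 5 in limma-voom with GC correction, 13 in limma-voom without shNC replicate 1 and 12 with array weights, which weighted the libraries by their spread. In limma with 1 library left out it ranged from 0 to 6, with 6 without shNC replicate 1. Members with an unadjusted p under 0.05 numbered 11, 21 with array weights, 19 in limma-voom without shNC replicate 1, 7 with a mean of at least 5 FPKM, and 7 to 17 with 1 library left out, 17 being without shNC replicate 1. Members with a positive difference numbered 20, against 13 of 18 tested with a mean of at least 5 FPKM. Genes of the 10 lists past the threshold ranged from 0 to 9 with 1 library left out, 9 being without shNC replicate 1.

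Over all genes the calls numbered 13, against 117 in limma-voom, 248 in limma-voom with GC correction, 2415 in limma-voom without shNC replicate 1, 52 with GC correction, 27 with GC correction without shNC replicate 1, 3187 with array weights, 31 with a mean of at least 5 FPKM, 7 with no filter, 64 over protein-coding genes, 8 in TPM and 20 with quantile normalization. With 1 library left out they ranged from 2 to 915, and 915 came without shNC replicate 1. The cause of these shifts was not tested. The replicate block gave 2 calls and the block with GC correction 3, none of them a member. Same-numbered libraries deviated with correlations of 0.065, -0.024 and 0.009, and 3 of the 6 libraries correlated best with the library of their own number, so the numbers were not taken as a pairing.

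The reversed differences were small. ACACB was at 0.01, against -0.0026 with GC correction without shNC replicate 1, -0.04 with array weights, -0.10 in limma-voom without shNC replicate 1, -0.0044 with quantile normalization and -0.066 to 0.057 with 1 library left out. ELOVL6 was at 0.04, against -0.026 with GC correction (also with the replicate block), -0.032 with GC correction without shNC replicate 1 and -0.036 in limma-voom with GC correction. TECR was at 0.02, against -0.077 with array weights, -0.0048 in limma-voom without shNC replicate 1 and -0.021 to 0.069 with 1 library left out. ACSL3 was at 0.07, against -0.035 with GC correction (also with the replicate block), -0.037 with GC correction without shNC replicate 1 and -0.056 in limma-voom with GC correction. GPAM was at 0.02, against -0.048 with GC correction (also with the replicate block), -0.036 with GC correction without shNC replicate 1, -0.044 in limma-voom with GC correction and -0.027 to 0.073 with 1 library left out. AGPAT2 was at -0.02, against 0.029 with GC correction (also with the replicate block), 0.047 with GC correction without shNC replicate 1, 0.035 in limma-voom with GC correction and -0.051 to 0.017 with 1 library left out. The planned edgeR test on recovered reads was not run.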
